A study of Mus musculus with 10 samples.

Results

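The comparison set sorted smooth muscle cells (SMCs) of the mouse jejunum, called JSMCs, against interstitial cells of Cajal (ICC) of the same organ, called JICC. It used 2 of the 10 samples of the series, each 1 RNA-seq library of cells sorted for a green fluorescent reporter, and it ran over the 12135 genes that reached 1 FPKM in at least 1 of them, of 18621 genes listed in the jejunal table. JSMCs came from smMHCCre-eGFP/+ mice, in which the promoter of *Myh11* drives Cre and eGFP, and cells of many mice were pooled into the library. JICC came from KitcopGFP/+ mice, in which copGFP is at the *Kit* locus. How many of those mice were used is not given in the sources used here. Both lines were on a C57BL/6 background and aged 4 weeks, and each carried its reporter on 1 allele. Strain, reporter and cell type changed together and cannot be told apart. Unsorted jejunal SM tissue and the colonic pair, CSMC and CICC, stand beside the main pair, and the labels list the tissue under the KitcopGFP/+ strain.

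SMCs and ICC lie side by side in the muscle layer of the gut. SMCs shorten when calcium activates myosin light chain kinase, and ICC generate the electrical slow waves that pace them, through the calcium-activated chloride channel ANO1. ICC depend on the receptor tyrosine kinase KIT, whose signal reaches the nucleus through RAS and ERK and keeps the ETS factor ETV1 in place. The cells are joined electrically and both answer transmitters of enteric nerves, which act through calcium, cAMP and cGMP.

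Levels were in FPKM, that is, mapped fragments divided by transcript length and by the size of the library, so they are per length and can be set between genes. Transcript variants under 0.025 FPKM were set to 0 and the variants of a gene were summed. Differences are log2 ratios of FPKM + 1, JSMC over JICC, which understate the difference of genes near 0. A gene was called when the ratio of FPKM + 1 was 4-fold or more. With 1 library per cell type there was no replicate check and no test, and the tables hold no counts, so the counting error of a value could not be computed. Every difference below is between these libraries.

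The genes behind the sort were far apart in the direction of the labels. *Myh11*, which encodes smooth muscle myosin, was at 3773 FPKM in JSMCs, 249 FPKM in JICC and 3370.4 FPKM in SM tissue. *Kit* was at 3.84 FPKM in JSMCs, 468 FPKM in JICC and 29.4 FPKM in tissue. *Kit* was thus 122-fold higher in JICC, while *Myh11* was 15.1-fold higher in JSMCs. Of 11 ICC markers compared, 9 were called higher in JICC, where 3.59% of all genes compared were, and the list median log2 ratio was −5.18. These 9 genes stood in JSMCs at 0.685% to 10.5% of their JICC level. *Cd9* and *Ddr2*, the other two, had log2 ratios of 1.54 and 0.50.

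JICC carried the contractile genes at a lower level. All 13 contractile markers of the study were called higher in JSMCs, where 2.42% of all genes compared were, and their JICC level was 6.61% to 17.2% of the JSMC level, with a median of 9.58%. Together they held 17.1% of the total FPKM of JSMCs, 2.30% of that of JICC and 11.7% of that of tissue. *Acta2*, the smooth muscle α-actin, still ranked 9 among all genes of JICC, at 938 FPKM, and ranked 1 in JSMCs. Contractile RNA made by ICC and RNA of SMCs in the ICC sort cannot be told apart in a bulk library, and for any gene neither can fewer cells of a type and less RNA per cell. The study chose these 13 markers on these cell types, so their direction is no independent evidence.

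Markers of other cell types were present at low and unequal levels. The 16 enteric neuron markers summed to 40.5 FPKM in JSMCs, 138 FPKM in JICC and 607 FPKM in tissue. All 14 compared were lower in JSMCs, with a median log2 ratio of −1.33. Of these 14, 4 reached 1 FPKM in JICC alone and so had to be lower in JSMCs. Only *Ret* and *Elavl3* of that list were called. The 13 macrophage markers in the table summed to 31.8, 53.8 and 165 FPKM in the same order. Mast cells also express *Kit*, and their 9 markers in the table summed to 5.56 FPKM in JICC, while 6 of them were at 0 in JSMCs. Among them *Cpa3*, a mast cell protease gene, was at 0.912 FPKM in JICC and at 0 in JSMCs and tissue. The 14 pancreatic acinar genes summed to 59.8 FPKM in JSMCs, 189 FPKM in JICC and 1.71 FPKM in tissue, and *Ctrb1*, a digestive protease gene, was at 15.1, 37.5 and 0 FPKM. PDGFRα cell markers had a median of −0.43, glial markers of −0.62, endothelial markers of −0.57, mesothelial markers of −0.53 and epithelial markers of −0.51. Pericyte markers had a median of 0.30 and fibroblast matrix genes one of 0.04, and both medians were below 0 under TPM scaling, at −0.23 and −0.53. Endothelial *Lyve1*, acinar *Prss2* and pericyte *Pdgfrb* were the calls in these lists beside those of neurons and matrix. Their part in the gene differences was not tested.

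Most genes were alike in both cells. Over all genes the log2 ratio had a median of −0.21, with quartiles of −0.66 and 0.23, and 79.0% of genes lay within 2-fold. There were 294 genes called higher in JSMCs, 2.42% of those compared, and 436 called higher in JICC, 3.59% of those compared. The count of calls in each gene list is to be read beside these shares. Of all calls 40.3% were higher in JSMCs, against 24.6% when each library was scaled to TPM, that is, to an equal total over its transcripts, where the median of all genes dropped by 0.35. The count higher in JSMCs was 294 under both scalings, and that higher in JICC was 901 under TPM. TPM values were larger than FPKM while the pseudocount and minimum stayed at 1, so both weighed less. Median ratio scaling, which kept the FPKM scale, gave 297 and 425. The parts of scaling and pseudocount in the 901 were not tested apart. Of the 294 genes, 82 reached 100 FPKM in JSMCs, and of the 436 genes, 54 reached it in JICC. SM tissue lay between both cell types for 241 and 396 of these genes. The 10 highest genes held 16.1% of the total in JSMCs and 3.85% in JICC. Among the 628 channel, transporter and related genes that the study lists, 284 entered, with 17 called higher in JSMCs and 28 higher in JICC.

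**Figure D1:**
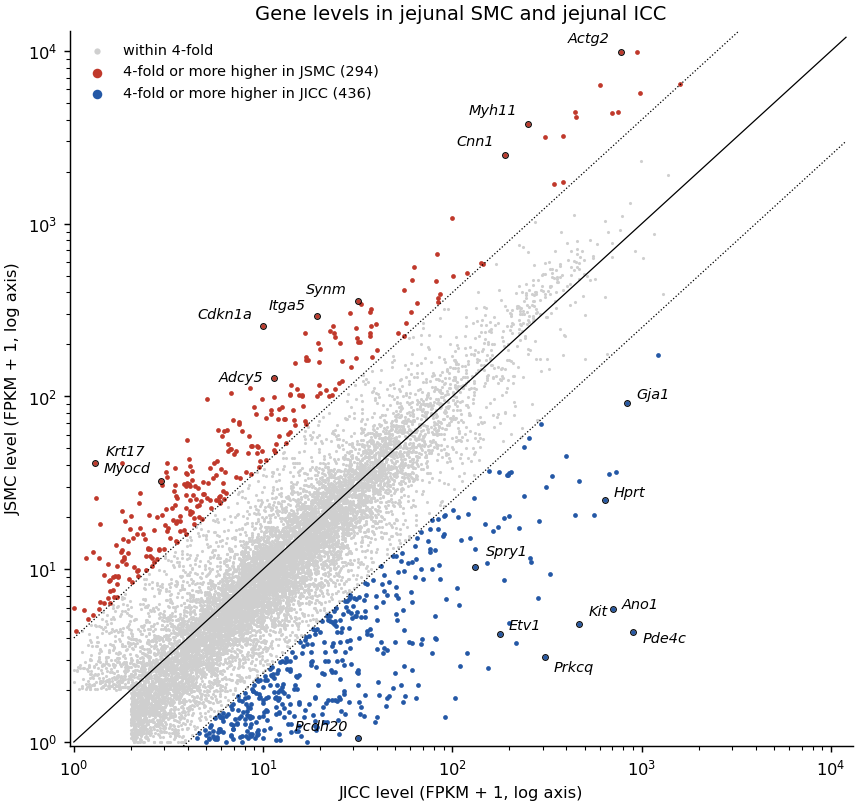
Levels of 12135 genes in JICC (horizontal) and JSMCs (vertical), as FPKM + 1 on log axes, with equality as a solid line and 4-fold as dotted lines. The 294 red genes were higher in JSMCs and the 436 blue genes higher in JICC, and *Pde4c*, *Ano1*, *Prkcq* and *Kit* lie farthest from equality on the JICC side.

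With all variants summed, the largest difference on the JICC side lay in a gene outside the ICC marker list. *Pde4c*, a phosphodiesterase that breaks down cAMP, was at 3.31 FPKM in JSMCs, 901 FPKM in JICC and 20.7 FPKM in tissue, a log2 ratio of −7.71, and it ranked 11 among all genes of JICC. Over its annotated variants alone the log2 ratio of *Pde4c* was −2.50, while those of *Ano1*, *Prkcq* and *Kit* were −6.67, −6.61 and −6.50, so most of the *Pde4c* difference lay in unannotated variants. *Ano1* was at 4.90, 703 and 67.5 FPKM, and *Prkcq*, the theta isoform of protein kinase C, at 2.10, 306 and 27.7 FPKM. All 3 were more than 100-fold apart, with tissue between the sorted cells. *Thbs4*, a secreted thrombospondin, stood at 2.75 FPKM in JSMCs and 216 FPKM in JICC. *Gpr20*, an orphan G protein-coupled receptor, was at 19.5 and 556 FPKM, and *Edn3*, the peptide endothelin 3, at 7.63 and 186 FPKM.

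Among the 20 largest differences on the JICC side were genes for cell adhesion, peptide handling and secretion. *Pcdh17* and *Pcdh20*, protocadherins of homophilic adhesion, were at 0.387 and 0.0575 FPKM in JSMCs against 89.9 and 30.5 FPKM in JICC. *Enpep*, the aminopeptidase that trims angiotensin, was at 1.68 FPKM against 154 FPKM. *Sctr*, the secretin receptor, was at 0.803 FPKM in JSMCs, 102 FPKM in JICC and 5.42 FPKM in tissue. *Syt4*, a synaptotagmin of vesicle fusion, was at 0.790 FPKM against 63.4 FPKM, and *Nell2*, a secreted glycoprotein known from neurons, at 1.77 FPKM against 108 FPKM. *Kctd12*, an auxiliary subunit of GABA-B receptors, had a log2 ratio of −5.36, *Abcc8*, the sulfonylurea receptor of ATP-sensitive potassium channels, one of −4.90, and *Elovl6*, a fatty acid elongase, one of −5.18. *Rasd2* and *Rit2*, small GTPases of the Ras family, had log2 ratios of −5.14 and −4.92. *Nkx3-2*, a homeobox gene of gut mesenchyme, stood at 3.91 FPKM in JSMCs and 198 FPKM in JICC. *Ms4a4d* had a log2 ratio of −4.94.

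*Krt17*, an epithelial keratin, led the JSMC side at 40.1 FPKM against 0.287 FPKM in JICC and 2.12 FPKM in tissue, a log2 ratio of 5.00. It was followed by *Cdkn1a*, the cell cycle inhibitor p21, at 253 FPKM against 8.97 FPKM in JICC and 8.94 FPKM in tissue. *Cxcl10*, an interferon-induced chemokine, was at 40.2 FPKM in JSMCs, 0.802 FPKM in JICC and 0.960 FPKM in tissue. *Trib3*, a pseudokinase of the stress response, was at 24.9, 0.302 and 0.283 FPKM. For these 4 genes tissue lay far below JSMCs, unlike for *Myh11*. *Park2*, the ubiquitin ligase parkin, was at 95.3 FPKM in JSMCs, 4.06 FPKM in JICC and 1.47 FPKM in tissue. *Cox6a2*, the muscle form of a cytochrome c oxidase subunit, was at 17.2, 0.378 and 0.0909 FPKM.

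Other genes of the 20 stood high in tissue as well. *Adam33*, a membrane metalloprotease, was at 104 FPKM in JSMCs, 5.74 FPKM in JICC and 32.0 FPKM in tissue, but over annotated variants alone its log2 ratio was 1.53 in place of 3.97 and it was not called. *Rgs1*, which shortens G protein signals, was at 112, 7.55 and 61.0 FPKM. *Slc6a17*, a transporter of neutral amino acids, was at 26.4, 1.25 and 9.76 FPKM, *Fam46b* had a log2 ratio of 3.57 and *2310050B05Rik* one of 3.58. Tissue fell between both cells for each of these 5 genes. Of the 13 contractile markers, *Myh11*, *Cnn1* and *Actg2* were among the 20, with log2 ratios of 3.91, 3.72 and 3.66.

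The contractile difference went beyond the markers. Of 38 other contractile and filament genes compared, 23 were called higher in JSMCs and 0 higher in JICC, with a list median of 2.15 beside −0.21 for all genes. *Synm*, the intermediate filament protein synemin, was at 355 FPKM in JSMCs, 30.7 FPKM in JICC and 342 FPKM in tissue. *Svil*, the actin-binding supervillin, was at 169, 15.9 and 125 FPKM. *Lmod1*, which nucleates actin filaments in smooth muscle, was at 188, 18.9 and 148 FPKM. Small heat shock proteins of muscle were part of the group, with log2 ratios of 3.23 for *Hspb7*, 3.00 for *Hspb8*, 2.96 for *Hspb6* and 2.06 for *Hspb1*. *Ppp1r12a*, the targeting subunit of myosin phosphatase, was at 497 FPKM against 99.4 FPKM, while *Ppp1r14a*, an inhibitor of that phosphatase, was at 244 FPKM against 159 FPKM. The non-muscle tropomyosins *Tpm3* and *Tpm4* had log2 ratios of −0.77 and −1.03. Intermediate filaments split, since *Des*, the muscle filament desmin, stood at 6379.7 FPKM in JSMCs and 602 FPKM in JICC, and *Vim*, the mesenchymal filament vimentin, at 173 and 1213 FPKM. *Vim* was in no list and was chosen after its values were seen.

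A part of the genes known from striated muscle was higher in JSMCs. Of 35 such genes 16 were compared, of which 6 reached 1 FPKM in JSMCs alone and so had to lie on that side, and 11 were called higher in JSMCs and 0 higher in JICC. Their median was 2.72, and it was 0.27 over all listed genes with no filter. *Tnnt2*, cardiac troponin T, was at 231 FPKM in JSMCs, 15.6 FPKM in JICC and 19.8 FPKM in tissue. *Ckm*, muscle creatine kinase, was at 232, 22.6 and 151 FPKM, and *Myom1*, the M-band protein myomesin, at 162, 15.9 and 62.8 FPKM. *Casq1* and *Casq2*, which bind calcium in the sarcoplasmic reticulum, were at 23.1 and 34.9 FPKM in JSMCs against 1.22 and 2.91 FPKM in JICC. *Actn2*, the Z-disc actinin, and *Myh7*, the slow myosin heavy chain, had log2 ratios of 3.12 and 3.10. Tissue was between both cells for each of these 7 genes.

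Some of the muscle genes carry a CArG box, the site of serum response factor (SRF), next to their start. A CArG box is 10 bases long, with 6 A or T between a pair of C and a pair of G, and it reads as the same form on both strands. RefSeq windows of GRCm38.p6, from 250 bases before to 50 bases after a gene's first listed start, were matched by RefSeq accession to 215 of the 294 genes higher in JSMCs and 316 of the 436 higher in JICC. Of those, 9 and 5 held a box, and 425 of all 27025 windows did (1.57%). Only 73.1% and 72.5% of the called genes had a window, under the 80% that such a check needs, so a comparison of the shares is void. Shown here are 4 boxed windows of muscle genes higher in JSMCs and the window of the largest boxed difference on the JICC side, chosen after the values were seen and read 5′ to 3′ on the gene's strand with the box in capitals.
*Asb2* (chr12:103356031-103356090, minus strand, box from −64): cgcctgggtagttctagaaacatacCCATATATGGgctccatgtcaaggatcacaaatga
*Myom1* (chr17:71019433-71019492, plus strand, box from −99): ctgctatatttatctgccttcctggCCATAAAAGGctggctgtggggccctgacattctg
*Ldb3* (chr14:34588682-34588741, minus strand, box from −35): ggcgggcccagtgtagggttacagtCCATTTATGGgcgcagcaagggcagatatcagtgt
*Myl9* (chr2:156775278-156775337, plus strand, box from −161): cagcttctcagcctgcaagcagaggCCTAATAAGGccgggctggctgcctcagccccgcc
*Col6a4* (chr9:106096868-106096927, minus strand, box from −211): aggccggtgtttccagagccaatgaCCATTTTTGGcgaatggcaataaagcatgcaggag
*Asb2*, a ubiquitin ligase subunit that acts on filamins, stood at 203 FPKM in JSMCs and 18.4 FPKM in JICC. *Ldb3*, a Z-disc protein, was at 34.4 and 2.96 FPKM, and *Myl9*, the regulatory light chain of myosin, at 5674 and 977 FPKM. *Col6a4*, a collagen chain gene, stood on the other side at 0.593 and 32.0 FPKM. A match of letters is a description and not a binding site.

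SRF and its partners differed by gene, with 1 of 6 called higher in JSMCs, beside 2.42% of all genes. *Myocd*, the coactivator that joins SRF at smooth muscle genes, was the 1 of 6 called, at 31.6 FPKM in JSMCs and 1.89 FPKM in JICC, with tissue between. *Srf* itself was at 121, 32.6 and 87.3 FPKM, short of a call. *Mkl1*, a related coactivator, was at 13.7 and 11.9 FPKM, and *Elk3*, an ETS partner, at 2.93 and 10.7 FPKM. The median of the list was −0.08, or 1.02 over members at 10 FPKM or more.

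Attachment of the cell to matrix differed by gene rather than as a block. *Itga5*, the fibronectin receptor α subunit, was at 292 FPKM in JSMCs, 18.2 FPKM in JICC and 74.1 FPKM in tissue. *Itga7*, a laminin receptor subunit of muscle, was at 42.2 and 3.05 FPKM in the sorted cells, and *Itga1*, a collagen receptor subunit, at 67.9 and 6.44 FPKM. With *Itgb3* these were the 4 of 13 integrins called, all higher in JSMCs, where 2.42% of all genes were. The list median of 1.10 turned to −0.019 under TPM scaling and was 0.17 with no filter. *Itgb1*, the β subunit that pairs with the 3 α subunits, was at 576 and 269 FPKM. *Dtna* and *Sgca*, members of the dystrophin complex that ties the cell skeleton to laminin, were called with log2 ratios of 2.91 and 2.68, and *Dmd*, dystrophin itself, had one of 1.12. Of 19 basement membrane genes 5 were called higher in JSMCs and 3 higher in JICC, beside 2.42% and 3.59% of all genes. Their median was 0.61.

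Collagen IV chains were divided between the cells. *Col4a1* and *Col4a2*, which form the common network, were at 584 and 372 FPKM in JSMCs against 143 and 82.7 FPKM in JICC. *Col4a3*, *Col4a5* and *Col4a6*, chains of the minor networks, were at 0.115, 2.35 and 0.690 FPKM in JSMCs against 7.78, 23.1 and 20.4 FPKM in JICC. Each chain of the first pair was thus called on the JSMC side and each of these 3 on the JICC side. *Lama4*, a laminin chain, was at 31.0 and 3.84 FPKM. Among fibroblast matrix genes, *Col1a1* and *Col1a2*, the chains of collagen I, were called higher in JSMCs at 663 and 465 FPKM against 82.3 and 81.0 FPKM.

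Caveolae, the membrane pits of muscle, held genes of both sides. *Cav3*, the muscle caveolin, was at 45.2 FPKM in JSMCs, 6.04 FPKM in JICC and 28.7 FPKM in tissue. *Cav1* and *Cav2*, the general forms, ran the other way, at 174 and 16.1 FPKM in JSMCs against 654 and 83.0 FPKM in JICC. *Gja1*, the gap junction protein connexin 43, was at 91.0 FPKM in JSMCs, 839 FPKM in JICC and 212 FPKM in tissue, a log2 ratio of −3.19. *Gjc1*, connexin 45, was at 27.6 and 45.0 FPKM. *Gja1* was the 1 of 4 gap junction genes called, where 3.59% of all genes were called higher in JICC. The list median was 0.11, but −1.94 over members at 10 FPKM or more and 0.81 under TPM scaling.

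**Figure D2:**
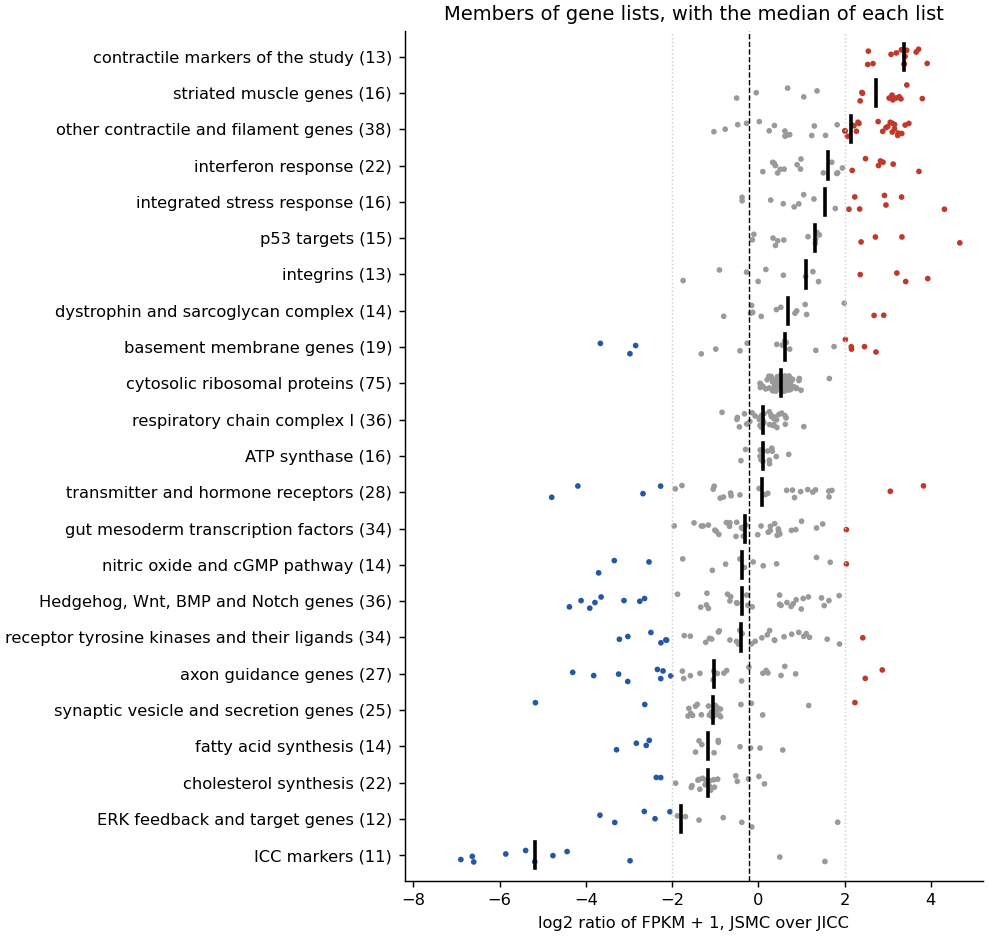
Log2 ratio of FPKM + 1, JSMC over JICC, for the members of 23 gene lists, with the number compared in brackets. Thick bars are list medians, the dashed line is the median of all genes at −0.21 and dotted lines are 4-fold, with red and blue for called members. Contractile lists lie to the right, at medians of 3.38, 2.72 and 2.15, and ERK feedback genes and ICC markers to the left, at −1.78 and −5.18.

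Cyclic nucleotide genes divided by isoform. *Adcy5*, an adenylyl cyclase, was at 126 FPKM in JSMCs, 10.4 FPKM in JICC and 98.0 FPKM in tissue. *Prkar2b*, a regulatory subunit of protein kinase A, was at 2.68, 67.3 and 24.1 FPKM, and *Prkacb*, a catalytic subunit, at 116, 33.4 and 124 FPKM. Beside *Pde4c*, the phosphodiesterase *Pde7b* was called higher in JICC, and *Pde4d*, another member of the PDE4 family, had a log2 ratio of 1.29. *Plcb4*, *Rgs2* and *Rgs4*, genes of Gq signals and their damping, were called higher in JSMCs with log2 ratios of 2.66, 2.17 and 2.03. In all, 4 of 31 genes were called higher in JSMCs and 3 higher in JICC, beside 2.42% and 3.59% of all genes. The list median was −0.16.

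In the nitric oxide and cGMP pathway the sensor and kinase were alike and the phosphodiesterases were not. *Gucy1b3*, the β subunit of soluble guanylyl cyclase, stood at 25.7 FPKM in JSMCs and 23.7 FPKM in JICC, and *Prkg1*, the cGMP-dependent kinase, at 19.7 and 26.8 FPKM. *Pde3a*, which cGMP inhibits, was at 16.3 FPKM in JSMCs, 224 FPKM in JICC and 51.4 FPKM in tissue. *Pde9a*, selective for cGMP, was at 12.1, 131 and 23.4 FPKM, and *Pde1a*, activated by calmodulin, at 6.51, 42.5 and 15.1 FPKM. *Pde1b* was the 1 gene of 14 called higher in JSMCs, at 18.6 FPKM against 3.76 FPKM, and *Pde5a*, the sildenafil target, was at 83.8 and 32.3 FPKM. The 3 genes called higher in JICC were *Pde3a*, *Pde9a* and *Pde1a*.

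Receptors for transmitters and hormones were called in both directions, 2 of 28 higher in JSMCs and 4 higher in JICC. Over all genes the shares were 2.42% and 3.59%. The list had a median of 0.09, or −0.84 under TPM scaling. *Chrm2*, the muscarinic M2 receptor, reached 116 FPKM in JSMCs and 119 FPKM in tissue and was 8.91-fold lower in JICC, while *Chrm3*, the M3 receptor, had a log2 ratio of −0.63. *Htr2b*, a serotonin receptor, was at 55.1, 2.95 and 21.9 FPKM. On the JICC side stood *Adcyap1r1*, the receptor of the peptide PACAP, at 1.24 FPKM against 39.7 FPKM, and *Ramp3*, which modifies calcitonin receptor-like receptors, at 0.617 FPKM against 43.8 FPKM. *Tacr1*, the substance P receptor, and *Ednra*, an endothelin receptor, had log2 ratios of −2.27 and −2.67. JICC thus held more of both *Edn3* and *Ednra*, and *Ednrb*, the receptor that endothelin 3 prefers, had a log2 ratio of −1.92 without a call.

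The listed feedback and target genes of ERK signals leaned to the JICC side. Of 12 ERK feedback and target genes 5 were called higher in JICC and 0 higher in JSMCs, beside 3.59% and 2.42% of all genes. Their median was −1.78. Immediate early and dissociation genes, a separate list given below, leaned the other way, with 14 of 21 above 0 and a median of 0.53. *Spry1*, an inhibitor that receptor tyrosine kinases induce, was at 9.33 FPKM in JSMCs, 131 FPKM in JICC and 22.9 FPKM in tissue. *Spry4* was at 4.07, 49.9 and 10.1 FPKM, and *Spry2* at 5.57, 26.2 and 12.9 FPKM. *Dusp4*, a phosphatase of ERK, and *Phlda1* were called as well, with log2 ratios of −2.39 and −2.64, while *Ier3*, an immediate early gene, had one of 1.84. Among ETS factors *Etv1* was at 3.22, 176 and 32.1 FPKM. Its close relatives *Etv4* and *Etv5* were at 0.0765 and 9.98 FPKM in JSMCs against 14.8 and 36.9 FPKM in JICC. *Etv4* and *Ets1* were the 2 of 11 listed ETS factors called, and the median of that list, which leaves out *Etv1*, was −0.17.

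Ligands and receptors of growth factors were called in 7 of 34 cases, 6 of them higher in JICC. Over all genes compared, 2.42% were called higher in JSMCs and 3.59% higher in JICC. *Igf2*, an insulin-like growth factor, stood at 3.35 FPKM in JSMCs and 23.4 FPKM in JICC, and *Vegfa* at 11.4 and 53.2 FPKM. *Fgfr3*, *Gfra1* and *Pdgfrb*, receptors for fibroblast, glial and platelet growth factors, had log2 ratios of −3.03, −2.26 and −2.14. *Egfr* was the 1 called higher in JSMCs, at 12.2 FPKM against 1.46 FPKM. *Kitl*, the ligand of KIT, was at 42.8 FPKM in JSMCs, 13.5 FPKM in JICC and 58.6 FPKM in tissue, opposite in direction to its receptor but short of a call.

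Some secreted antagonists of Wnt and BMP signals were called higher in JICC, but not all. *Dkk2* and *Sfrp1*, which act on Wnt signals, were at 5.25 and 2.95 FPKM in JSMCs against 107 and 81.3 FPKM in JICC. *Chrdl1*, a BMP antagonist, was at 5.73 FPKM in JSMCs, 92.0 FPKM in JICC and 22.2 FPKM in tissue, whereas *Grem1*, another, was at 136, 67.8 and 141 FPKM. The Notch targets *Hes1* and *Hey1* were called higher in JICC too, at 54.6 and 9.04 FPKM against 3.44 and 0.495 FPKM. *Bmp7* and *Bmpr1b* were called on that side as well. In all, 8 of 36 genes were called higher in JICC and 0 higher in JSMCs, beside 3.59% and 2.42% of all genes. Of the 36, 10 reached 1 FPKM in JICC alone and 2 in JSMCs alone, which fixed their sign. The list median was −0.38.

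Axon guidance genes were called higher in JICC in 8 of 27 cases and higher in JSMCs in 2, beside 3.59% and 2.42% of all genes. *Nrp1*, a receptor for semaphorins and VEGF, was at 1.51 FPKM in JSMCs, 48.5 FPKM in JICC and 16.9 FPKM in tissue. The Slit ligands divided, with *Slit3* at 9.79, 151 and 28.1 FPKM and *Slit2* at 24.7, 2.50 and 21.5 FPKM. *Sema3c*, a ligand of neuropilins, stood at 19.2 FPKM in JSMCs and 2.63 FPKM in JICC. *Ephb2* and *Efnb3*, an ephrin receptor and an ephrin, had log2 ratios of −3.03 and −3.24. The list median was −1.03, beside −1.33 for enteric neuron markers, and the part of neuronal RNA in it was not tested.

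**Figure D3:**
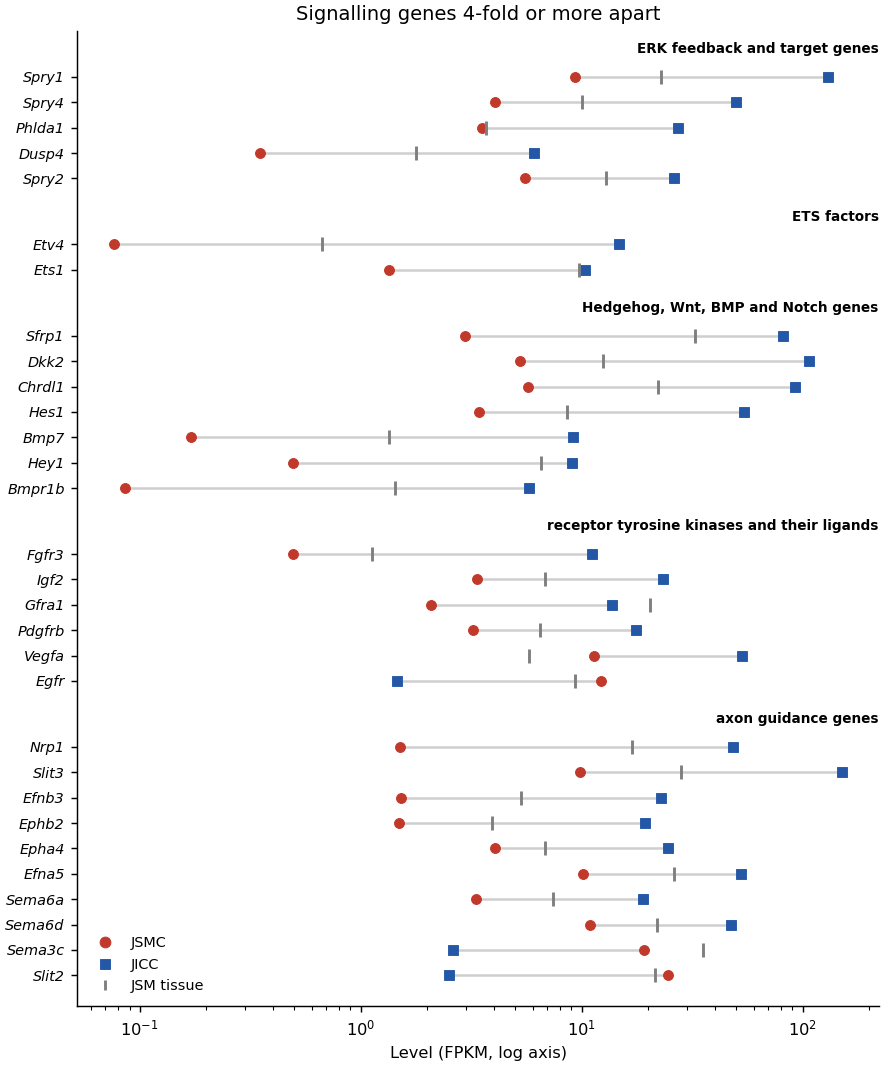
Levels in FPKM on a log axis of 30 signalling genes called in 5 lists, in JSMCs (circles), JICC (squares) and SM tissue (ticks). JICC was the higher of both sorted libraries for all but *Egfr*, *Sema3c* and *Slit2*, and tissue fell outside the sorted pair for *Gfra1*, *Vegfa* and *Sema3c*.

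Of 34 listed transcription factors of gut mesoderm, a list that does not hold *Nkx3-2*, 1 was called higher in JSMCs and 0 higher in JICC, beside 2.42% and 3.59% over all genes. *Klf15*, a factor of metabolic genes, was the call, at 9.96 FPKM in JSMCs against 1.66 FPKM in JICC. *Foxf1a*, a forkhead factor of gut mesenchyme, was at 86.9 and 212 FPKM, and *Hand1*, a bHLH factor, at 71.7 and 280.1 FPKM. *Hlx*, a homeobox factor, leaned the other way at 40.3 and 13.7 FPKM. The median of −0.31 was close to that of all genes.

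Respiratory chain and ATP synthase genes lay somewhat above the median of all genes, which was −0.21. Complex I, complexes II to IV and ATP synthase had medians of 0.12, 0.09 and 0.10. Above 0 were 27 of 36, 16 of 28 and 14 of 16 genes. Under TPM scaling the medians became −0.18, −0.21 and −0.20, beside −0.56 for all genes. In the colonic pair they were 0.57, 0.77 and 0.69, beside −0.49 for all genes. The citrate cycle had a median of −0.19 in jejunum, near that of all genes, and 0.19 in colon. Within the respiratory chain, tissue-specific subunits were the ones called, *Cox6a2* on the JSMC side and *Cox7a1* and *Cox8b* on the JICC side, the last pair at 16.2 and 2.42 FPKM in JSMCs against 75.1 and 44.1 FPKM in JICC. Glycolysis had a median of −0.53, with 14 of 21 genes below 0. On the other side of 0 *Slc2a4*, the insulin-responsive glucose carrier, and *Eno3*, muscle enolase, were called, at 222 and 77.9 FPKM in JSMCs against 35.8 and 9.99 FPKM in JICC. *Ckb*, brain creatine kinase, was at 1695, 343 and 925 FPKM in JSMCs, JICC and tissue. *Ppargc1a*, a coactivator of mitochondrial genes, and *Cpt1b*, the muscle form of the enzyme that admits fatty acids to mitochondria, were higher in JICC, at 26.9 and 21.9 FPKM against 2.84 and 1.62 FPKM.

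Lipid synthesis leaned towards JICC along both pathways. Of 14 fatty acid synthesis genes 4 were called higher in JICC, where 3.59% of all genes were. A ratio below 0 was found for 12, of which 1 reached 1 FPKM in JICC alone, and the median was −1.17. *Scd2* and *Scd1*, desaturases, were at 15.7 and 6.07 FPKM in JSMCs against 162 and 49.2 FPKM in JICC. *Srebf1*, the factor that turns these genes on, was at 11.6 FPKM in JSMCs, 75.1 FPKM in JICC and 16.6 FPKM in tissue, and *Acacb*, an acetyl-CoA carboxylase, at 4.39, 30.1 and 8.10 FPKM. Of 22 cholesterol synthesis genes 20 had a ratio below 0, with a median of −1.18. Called higher in JICC were 2 of the 22, beside 3.59% of all genes. *Insig1*, a sensor of sterols, was 1 of them, at 4.49 FPKM in JSMCs against 25.4 FPKM in JICC.

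Stress genes stood on the JSMC side. Of 16 genes of the integrated stress response 7 were called higher in JSMCs, with a median of 1.54. Of 15 p53 targets 4 were, with a median of 1.32, beside 2.42% of all genes. *Chac1*, a target of ATF4, was at 11.6 FPKM in JSMCs, 0.265 FPKM in JICC and 0.914 FPKM in tissue, and *Atf4* itself at 129, 61.7 and 53.2 FPKM. *Phlda3*, a p53 target, was at 101, 14.5 and 15.1 FPKM, whereas *Mdm2*, another, was at 23.4, 17.5 and 14.4 FPKM. All 22 interferon response genes had a ratio above 0, 7 were called, and the median was 1.61. Of the 22, 5 reached 1 FPKM in JSMCs alone and so had to lie on that side. *Irf7*, an interferon regulatory factor, was at 35.9, 3.22 and 3.73 FPKM, and *Ifit3*, an interferon-induced antiviral gene, at 40.0, 2.10 and 8.70 FPKM. In tissue the sums were near those of JICC, at 195 FPKM for the integrated stress genes beside 206 FPKM in JICC and 570.5 FPKM in JSMCs. The interferon genes summed to 384 FPKM in JSMCs, 127 FPKM in JICC and 166 FPKM in tissue. Immediate early and dissociation genes, which mark handling of cells, were high in both sorts, at 1464 FPKM in JSMCs and 1045 FPKM in JICC against 549.5 FPKM in tissue, and only *Atf3* of 21 was called. In the colonic pair the medians were 0.68 for integrated stress genes, 1.15 for p53 targets and 0.57 for interferon genes, beside −0.49 for all genes. Whether sorting or the mouse line had a part in the stress genes was not tested. Chaperones of the endoplasmic reticulum leaned the other way, with 18 of 20 below 0, a median of −0.56 and no call.

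Genes often used as references gave 1 call. All 75 cytosolic ribosomal protein genes had a ratio above 0, with a median of 0.53 (0.22 under TPM scaling) and none called, and the largest ratio was that of *Rplp0* at 735 FPKM against 234 FPKM. *Hprt*, a purine salvage enzyme, was at 24.1 FPKM in JSMCs, 637 FPKM in JICC and 101 FPKM in tissue, a log2 ratio of −4.67. It was the 1 of 14 ubiquitous genes called, and of these 7 lay above and 7 below 0, with a median of −0.038.

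The colonic pair gave the same contrast in a second set of libraries. There, 314 genes were called higher in CSMC (2.57% of 12234) and 551 higher in CICC (4.5%). Of the 294 genes called higher in JSMCs, 181 (61.6%) were called the same way in colon, which is 57.6% of the colonic calls, and 274 (93.2%) had the same sign. Of the 436 genes called higher in JICC, 172 (39.4%) were called the same way, 31.2% of the colonic calls, and 391 of the 435 found in the colonic table (89.9%) had the same sign. The median colonic log2 ratio was 2.35 over the JSMC genes and −1.64 over the JICC genes, beside −0.49 over all genes compared in colon. A sign below 0 was thus the more common one in colon for any gene. *Krt17*, *Cdkn1a*, *Park2*, *Itga5* and *Tnnt2* had colonic log2 ratios of 5.17, 4.27, 5.28, 3.14 and 4.73. *Pde4c* was at 0.471 FPKM in CSMC and 55.3 FPKM in CICC, a log2 ratio of −5.26, and *Hprt* at 22.5 and 904 FPKM. *Enpep* reached 1014 FPKM in CICC against 3.18 FPKM in CSMC. The colonic mice were of the same lines, so strain and cell type remained tied there as well.

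Several genes of the JICC side were not called in colon. *Sctr* was at 102 FPKM in JICC and 0.520 FPKM in CICC, and *Rasd2* at 328 and 2.96 FPKM. Their colonic log2 ratios were −0.39 and −0.56. *Kctd12*, at 17.6 and 30.5 FPKM in colon, *Ms4a4d* and *Abcc8* had colonic log2 ratios of −0.76, −0.79 and −0.99, and *Hcn4*, a pacemaker channel gene, was at 39.1 FPKM in JICC and 0.0905 FPKM in CICC. Jejunal and colonic tables were normalized separately, so levels set between organs carry that limit.

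A few genes turned over between the organs. *Aldh1a2*, which makes retinoic acid, stood at 13.8 FPKM in JSMCs and 110.5 FPKM in JICC, and at 44.7 FPKM in CSMC and 2.73 FPKM in CICC. *Pln*, phospholamban, the brake of the calcium pump, was at 35.7 and 203 FPKM in the jejunal pair, then 64.3 and 3.85 FPKM in the colonic one. *Colec10*, a collectin, had a jejunal log2 ratio of −2.52 and a colonic one of 2.93, and *Chrdl1* was at 16.1 FPKM in CSMC and 3.57 FPKM in CICC. On the JSMC side *Htr2b* was at 17.4 FPKM in CSMC and 44.9 FPKM in CICC, and *Plcb4* at 28.2 and 166 FPKM. *Rerg*, *Col8a2* and *Pde1b* had jejunal log2 ratios of 2.16, 2.03 and 2.04 and colonic ones of −2.66, −1.98 and −1.94. With *Sctr*, these were the 5 genes in each direction whose jejunal ratio lay furthest from the colonic one. For *Aldh1a2*, *Pln*, *Htr2b* and *Plcb4* the levels in SMCs of both organs lay closer than those in ICC.

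**Figure D4:**
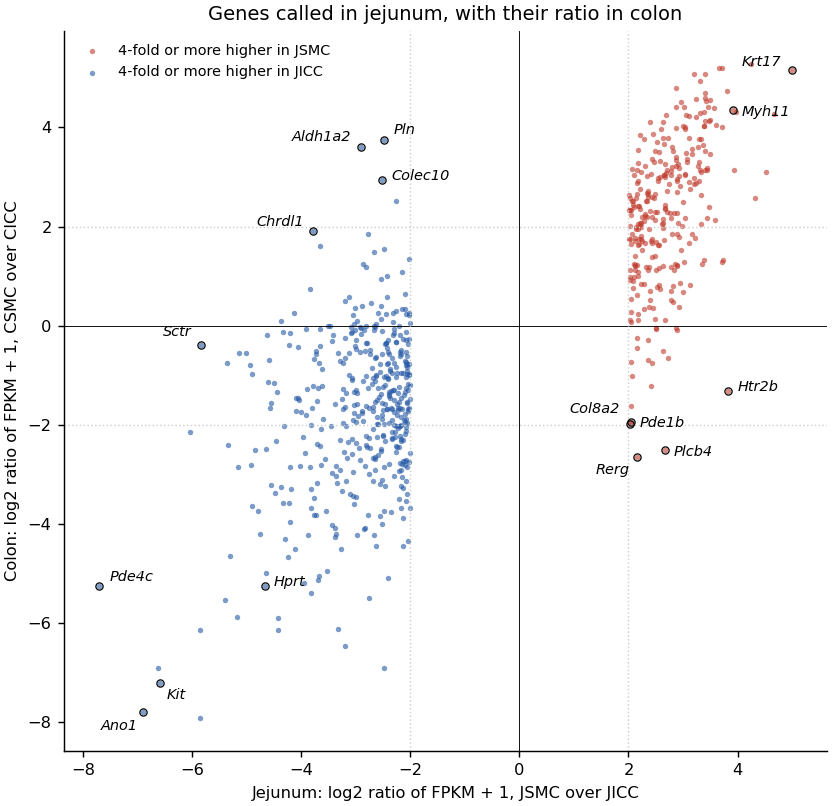
Genes called in jejunum, with the jejunal log2 ratio of FPKM + 1, JSMC over JICC (horizontal), and the colonic one, CSMC over CICC (vertical). Of the red genes 274 of 294 lie above 0 in colon and of the blue genes 391 of 435 lie below 0. All genes compared in colon had a median of −0.49. The named exceptions include *Aldh1a2*, *Pln* and *Plcb4*.

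Transcript variants could differ where gene levels did not. Among 4555 genes at 10 FPKM or more in both libraries, the share of a gene's FPKM that moved between variants had a median of 8.61%, and it was 50% or more in 38 genes (0.834%). The level of 33 of these was within 2-fold, and in 30 the variants that gained most on either side had different start sites. *Lars2*, the mitochondrial leucyl-tRNA synthetase, held the largest shift and stood at 642 FPKM in JSMCs and 697 FPKM in JICC. A *Lars2* variant of 1766 bases made up 90.3% of it in JSMCs, 0.0632% in JICC and 90.7% in tissue, and a variant of 1803 bases made up 99.0% in JICC. Both lie within chromosome 9, 123276057 to 123381855 in mm9. *Phb2*, prohibitin 2, had the annotated variant at 84.6% in JSMCs, 4.59% in JICC and 5.31% in tissue. Tissue thus sat with JSMCs for *Lars2* and with JICC for *Phb2*.

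In colon, 32 of the 37 genes with both variants in the table moved the same way. The *Lars2* variant of JSMCs was at 98.0% in CSMC and 0.547% in CICC, and the *Phb2* variant at 88.5% and 3.23%. *Map4k5*, a kinase upstream of JNK, had a variant at 56.7% in JSMCs and 6.79% in JICC, and at 48.1% and 6.93% in colon. *Gramd1a*, *C230096C10Rik*, *D0H4S114*, *Morf4l1*, *Rap1b*, *Pde4dip* and *Bcl9* completed the 10 largest shifts, of 71.7% to 62.8%. *Rap1b*, a small GTPase, had a variant at 66.1% and 2.37% in jejunum and at 62.0% and 38.5% in colon. Variants of a gene share most of their sequence, and shares rest on how Cufflinks divided the fragments among them.

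**Figure D5:**
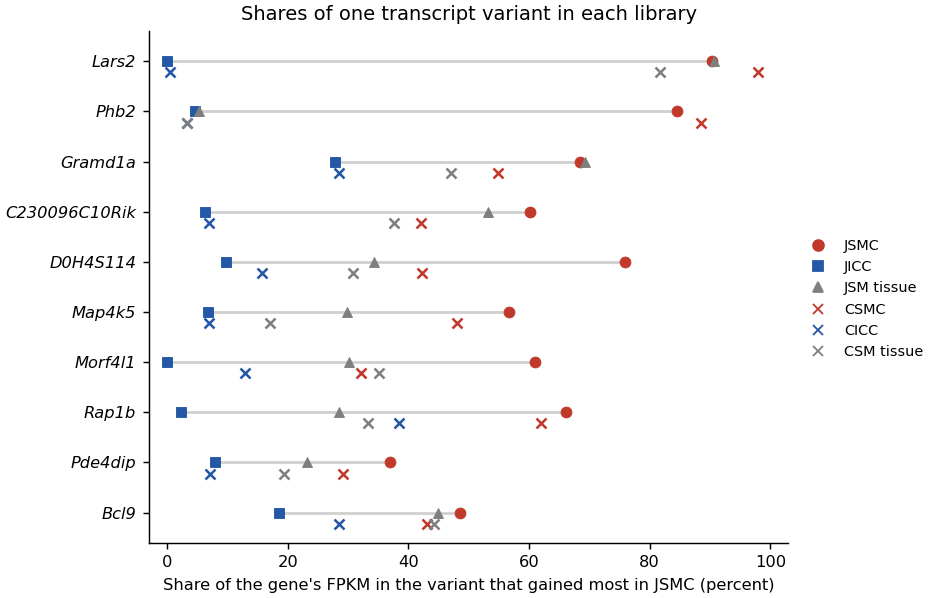
Share of each gene's FPKM, in percent, held by the variant that gained most in JSMCs, for the 10 genes with the largest shifts. Filled symbols are jejunal libraries and crosses colonic ones, with SMCs in red, ICC in blue and tissue in grey. For *Lars2* tissue lies at 90.7%, beside JSMCs, and for *Phb2* at 5.31%, beside JICC.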

How the data were processed

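The authors aligned reads to mm9 with TopHat 1.4.1 and assembled and quantified transcript variants with Cufflinks 2.0.2. They deposited FPKM per variant, with 70143 variants in the jejunal and 68502 in the colonic table, and each table was normalized on its own. The tables hold no counts and no replicates. Here values under 0.025 FPKM were set to 0, variants were summed by gene symbol, and log2 ratios of FPKM + 1 were taken over genes with 1 FPKM or more in either library, called at 4-fold. Gene lists (52) are summarised by counts and medians. The genes compared, the lists and the alternatives were chosen with earlier results of these data known. Genes were named when they were *Myh11* or *Kit*, in a list, among the 20 largest ratios per direction at 10 FPKM or more, among the 5 per direction furthest from the colonic pair, or among the 10 largest isoform shifts, and *Vim*, *Asb2* and *Col6a4* were added after their values were seen. Ion channel and contractile marker genes of the study are counted, with values only where among those 20 or in a list. An isoform shift is the summed gain in share over the variants that gained. The arithmetic of JSMC against JICC was tested on simulated data. These set JICC against a copy of itself with set folds and a small random factor per gene, not taken from replicates. There 100 of 100 genes set 8-fold apart, 0 of 100 set 2-fold apart and 0 of 11672 unchanged genes were called. This says nothing of false calls between single libraries. Alternatives changed the cutoff, pseudocount, filter, scaling, known isoforms only and thresholds. Work was done in Python 3.11.15 with pandas 2.3.3 and numpy 2.4.6, and plots in matplotlib 3.10.9. The libraries labelled PDGFRα cells and mucosa were not used here, and some named-gene results are not reported here.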

Additional observations from a re-analysis of the deposited data

Results flagged for a closer look

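Each of 6 genes was called in jejunum and, in the opposite direction, in colon. Each pair is 1 library against 1, so the difference between the organs was not tested. *Aldh1a2* had a log2 ratio, SMC over ICC, of −2.91 in jejunum and 3.61 in colon, a difference of −6.53. *Pln* had −2.47 and 3.75, a difference of −6.22, and *Colec10* had −2.52 and 2.93, a difference of −5.45. *Tacr1*, the substance P receptor, had −2.27 and 2.52, with 10.7 FPKM in CSMC and 1.04 FPKM in CICC, a difference of −4.79. In the other direction, *Plcb4* had log2 ratios of 2.66 and −2.52, a difference of 5.18. *Rerg*, a Ras-related growth inhibitor, was at 25.2 and 4.87 FPKM in the jejunal pair, then 12.3 and 82.9 FPKM in the colonic one, a difference of 4.82.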

How the results depend on the processing

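The counts of called genes depended on the pseudocount and the fold more than on the cutoff, the filter or median ratio scaling. The 294 genes higher in JSMCs became 444 with a pseudocount of 0.1, 154 with one of 5, 883 at 2-fold and 80 at 8-fold. The 436 genes higher in JICC became 865, 171, 1665 and 164 in the same order, and 901 under TPM scaling. There the pseudocount and minimum stayed at 1 on values larger than FPKM. The 38 isoform shifts became 3 among genes at 50 FPKM or more in both libraries, 350 at a shift of 30% and 4 at 70%. The median of integrins turned from 1.10 to −0.019 under TPM scaling, where the minimum of 1 stood for a lower FPKM level. It was 0.17 with no filter, and the cause was not tested. Of the other list medians 437 values under the alternatives were within the limits set and 23 moved, and of the named genes 353 and 75. With annotated variants only, *Pde4c* went from −7.71 to −2.50, *Adam33* from 3.97 to 1.53, *Abcc8* from −4.90 to −2.81, *Nell2* from −5.30 to −3.21 and *Myocd* from 3.50 to 2.19. No paired analysis was possible because there is 1 library per condition, and no library could be left out. Without counts, the error of low values could not be computed. Strain, reporter and cell type cannot be told apart.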

Other observations

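Of 20 cell cycle genes 19 had a log2 ratio below 0, with a list median of −0.78, and none was called. Of these 19, 3 reached 1 FPKM in JICC alone and so had to lie below 0. Of 25 synaptic vesicle and secretion genes 22 were below 0, with a median of −1.06, but 8 reached 1 FPKM in JICC alone and had to be. Of the 25, 1 was called higher in JSMCs and 2 higher in JICC, beside 2.42% and 3.59% of all genes. Enteric neuron markers lay on the same side, with 14 of 14 below 0, of which 4 had to be by the same filter. Their median was −1.33, and their part in the synaptic vesicle list was not tested. In that list *Rab3b*, a GTPase of vesicle traffic, was at 14.2 FPKM in JSMCs, 2.21 FPKM in JICC and 18.6 FPKM in SM tissue, and *Sv2a*, a synaptic vesicle protein, at 4.27, 31.7 and 13.2 FPKM. Of 13 cadherins and junction proteins 11 were below 0, with a median of −1.03, and 2 were called, both higher in JICC, where 3.59% of all genes were. *Cdh11*, a mesenchymal cadherin, was at 8.74, 54.6 and 32.2 FPKM in the same order, and the other, *Cadm1*, an adhesion molecule of the immunoglobulin family, at 1.16, 11.7 and 19.5 FPKM. *Ampd3*, an AMP deaminase, stood at 2.25 FPKM in JSMCs and 77.1 FPKM in JICC, and at 1.03 FPKM in CSMC and 2.31 FPKM in CICC. Antigen presentation genes had no call and a median of −0.12, or 0.49 over members at 10 FPKM or more.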
